A study of Homo sapiens with 8 samples.

Results

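Ribosome footprints of U2OS cells with a QKI7 construct were compared with those of cells with an empty vector, in 4 of the 8 libraries of the study. U2OS is an established human osteosarcoma line. The groups were 2 vector footprint libraries and 2 QKI7 footprint libraries, chosen by construct and by library type, and the matching 2 vector and 2 QKI7 input RNA libraries served as a second readout. Cells of every group, vector cells included, had received 0.5 mM sodium arsenite (NaAsO2) for 1 h, so no value here bears on arsenite itself. The QKI7 cells overexpressed QKI7 according to the labels. Which promoter drove the construct and whether the cells were 1 clone or a pool are not given in the sources used here, nor whether replicate libraries represent separate dishes. P-values therefore rest on the spread of these libraries alone, and that spread may be technical. Footprints were RNA fragments of 17 to 34 nt recovered from collected ribosomes and read as single 51 nt reads.

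QKI belongs to the STAR family of RNA-binding proteins, which bind short motifs in RNA as dimers and act in splicing, RNA stability, transport and translation. QKI7 is a splice isoform of QKI with its own carboxy-terminal end. A ribosome shields a short stretch of the mRNA it is reading from nuclease, so the share of footprints on an mRNA reflects both how much of that mRNA a cell holds and how many ribosomes are on it. Arsenite causes oxidative stress, phosphorylation of the initiation factor eIF2 alpha, a general fall in initiation and the assembly of stress granules, in which untranslated mRNAs collect.

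The deposited values are TPM, a share of transcripts corrected for length, over a table of 26902 genes and RNAs. Ribosomal RNA made up 97.3% of vector and 96.8% of QKI7 footprint libraries (mean of 2 libraries each). After 2535 entries for ribosomal RNA, other small non-coding RNA and spike-ins were dropped by name, 24367 entries were left, which held 0.932% to 0.976% of a library. They were rescaled to a sum of 1000000 in each library, and a level below is given in these rescaled TPM. A mean of 0.5 deposited TPM or more over the 4 libraries was needed to be tested, which left 1573 entries, 1468 of them protein-coding genes of RefSeq. An entry at 0.5 deposited TPM stands at 51.2 to 53.7 rescaled TPM, depending on the library. Read depth cannot be recovered from TPM, so how many reads stand behind a level is unknown. Across the genes tested, replicate libraries correlated at Pearson r = 0.967 (vector) and 0.970 (QKI7), against 0.917 to 0.941 between the constructs; genes are not independent replicates. The median absolute log2 difference between replicates was 0.15 in vector and 0.17 in QKI7 libraries, and 0.39 between the group means.

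Markers of the labelled cell type were partly present. Of 16 mesenchymal markers 7 were tested, among them VIM, SPARC and LGALS1. RUNX2, a regulator of bone cells, had a mean of 0.0425 deposited TPM and TWIST1 was listed at 0 in all 4 libraries. Markers of epithelial, blood, neural and glial, and endothelial cells had 0 members tested, and each of these lists summed to between 0.08 and 0.43 deposited TPM in every library.

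QKI itself, at chromosome 6, 163414718 to 163578592 in GRCh38, had the largest change among the genes called. Its footprint level was 61.2 and 70.4 rescaled TPM in the vector libraries and 2781 and 2875 in the QKI7 libraries. The groups lay far apart and the ratio of means was 43.0. The log2 change was 5.41 (SE 0.11, limma adjusted p = 1.48e-06). In the input RNA the log2 change of QKI was 8.82 (adjusted p = 1.03e-06), and the footprint change minus the input change was -3.41 (adjusted p = 4.62e-06). A value for the whole gene holds every QKI isoform and every transcribed part of the construct.

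Of the 1573 genes tested, 605 were called at an adjusted p under 0.05, which is 38.5%. Of these, 114 were higher in QKI7 footprints (7.25% of those tested) and 491 lower (31.2%). The surplus of falls depends on the scale. A few abundant entries took a larger share of QKI7 footprints: RELN took 0.936% and 1.01% of the kept TPM in vector libraries and 6.57% and 6.53% in QKI7 libraries, vault RNAs 9.88% and 10.2% against 12.7% and 12.2%, and SNAR RNAs 4.22% and 4.13% against 6.76% and 6.67%. With equal sums a larger share for these entries lowers the rest, and the median log2 change over all genes tested was -0.31. With the 3 kinds of RNA left out of the sums, a choice made after seeing the data, the median was still -0.13, with 153 genes higher and 246 lower, so they make up part of the shift. When each library was instead scaled by the median of its ratios to the geometric mean, which sets the typical gene to no change, 314 genes were called (20%), of which 190 were higher (12.1%) and 124 lower (7.88%). All 114 higher genes and those 124 lower genes were called on both scales, and 0 genes had opposite calls. List medians below are given relative to the median of all genes tested, so that -0.26 means a log2 change 0.26 below that of the typical gene. The total also depended on the vector libraries: without vector replicate 1 it was 362 genes and without vector replicate 2 it was 343. Differences between footprint and input changes are given with equal sums only, where their median over all genes tested was -0.15. Whether such a difference passes the threshold with median-of-ratios scaling is not given here. A gene named below as called in footprints kept its call on both scales, and in each of 4 fits that left out 1 library, unless its sentence says otherwise. In such a fit the group with 1 library is assumed to vary like the other, with 1 residual degree of freedom. The prior degrees of freedom were 5.71 and 5.72 without a vector library but infinite without a QKI7 library, where every gene received the variance of the trend, so the latter fits are a weaker check of a single gene.

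**Figure D1:**
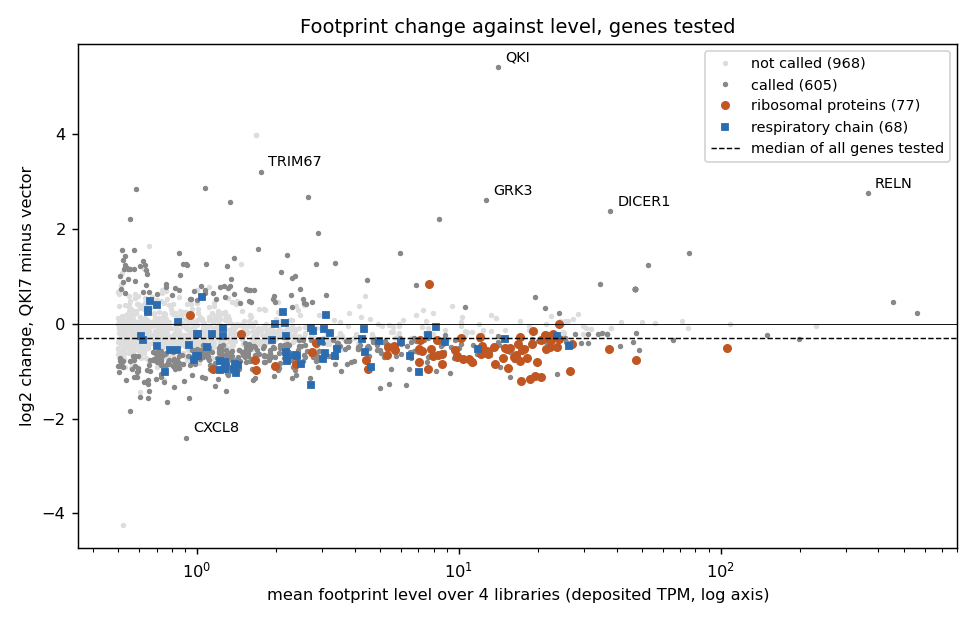
Log2 change of footprint level (QKI7 minus vector, vertical axis) against the mean deposited TPM over the 4 footprint libraries (log axis) for the 1573 genes tested. Ribosomal protein genes (77, orange) lie mostly below the dashed median of -0.31, and QKI, RELN, DICER1, GRK3 and TRIM67 stand well above the other genes at their level.

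Among protein-coding genes other than QKI, the largest rises were in TRIM67, FAM181B, RELN, HDGFRP3, GRK3, HS3ST4, DICER1, JUND and FOXF2. RELN, the gene of reelin, a large secreted glycoprotein of the extracellular matrix known from neuronal positioning (chromosome 7, 103471789 to 103989658), had the highest level of these. It stood at 9359 and 10138 rescaled TPM in vector libraries and at 65686 and 65290 in QKI7 libraries. The groups did not overlap, and the log2 change was 2.75 (SE 0.05, adjusted p = 1.48e-06), a ratio of 6.72. DICER1, the enzyme that cuts microRNA precursors, went from 1329 and 1206 to 6790 and 6321 (log2 change 2.37, SE 0.08, adjusted p = 1.87e-05). GRK3, a kinase of G protein-coupled receptors, went from 396 and 340 to 2597 and 1929 (log2 change 2.60, adjusted p = 0.000338). These 3 genes had high footprint levels in vector cells too, so their rises do not rest on values near the filter.

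The other genes of this group were low in vector footprints. TRIM67, a ubiquitin ligase of the tripartite motif family, was at 32.2 and 37.3 in vector libraries and at 320 and 333 in QKI7 libraries (log2 change 3.20, adjusted p = 0.000175). HDGFRP3, a relative of hepatoma-derived growth factor now called HDGFL3, went from 65.5 and 82.1 to 505 and 444 (log2 change 2.67, adjusted p = 0.000338). FOXF2, a forkhead transcription factor, went from 107 and 145 to 534 and 411 (log2 change 1.90, adjusted p = 0.00198). FAM181B (log2 change 2.85), HS3ST4, a heparan sulfate sulfotransferase (2.55), and JUND, a subunit of the AP-1 transcription factor (2.21), also had adjusted p-values below 0.01. JUND was at 12.9 and 28.8 in vector libraries and at 87.6 and 99.4 in QKI7 libraries, so its vector values are among the lowest of the genes named here. For TRIM67 and JUND both vector values lay under the level of 0.5 deposited TPM, so they passed the filter only through the QKI7 libraries.

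Many of the genes that rose most had hardly any input RNA. RELN was listed at 0.02 and 0.04 deposited TPM in vector inputs and at 0.04 and 0.02 in QKI7 inputs. TRIM67 had 0.02 and 0.02 against 0.04 and 0.03, and FOXF2 had 0.15 and 0.09 against 0.13 and 0.18. Of the 10 largest rises, 5 had a mean input under 0.5 deposited TPM. Over all genes tested, 131 had such a low input, and of these 35 were higher (26.7%) and 19 lower (14.5%) in QKI7 footprints, with a median log2 change of 0.05. Of the other 1442 genes, 79 were higher (5.48%) and 472 lower (32.7%), with a median of -0.33. These shares depend in part on the filter, which is a mean over both groups. It let 62 genes with a vector mean under 0.5 deposited TPM pass through the QKI7 group, 30 of them higher. In the other direction 118 genes with a QKI7 mean under 0.5 passed, 40 of them lower. How many of these genes had a low input was not counted. Whether footprint reads of the low-input genes came from their mRNA was not tested. For DICER1 the inputs were 2.19 and 2.48 deposited TPM in vector and 3.66 and 3.30 in QKI7 cells, a log2 change of 0.40 on the rescaled scale that missed the threshold (adjusted p = 0.0548).

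**Figure D2:**
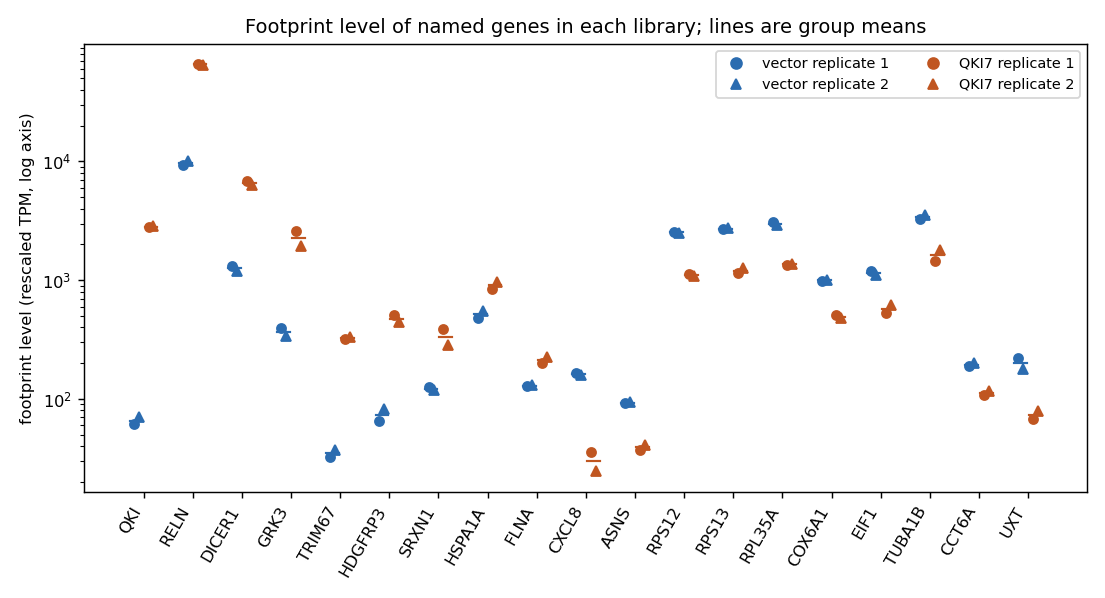
Footprint level in rescaled TPM (log axis) of 19 named genes in each of the 4 libraries; circles are replicate 1, triangles replicate 2, blue vector, orange QKI7, and short lines the group means. The genes are among those named for their call, so the gap between blue and orange points follows from that choice.

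The largest falls were in genes of several kinds. For CXCL8, BCL2A1, NIFK, SPANXB1 and METTL5, given below, both QKI7 values lay under the level of 0.5 deposited TPM. These genes passed the filter only through the vector libraries, and a gene that passes in this way can hardly appear as a rise. MRPL20 and MRPL36 lay under that level in QKI7 replicate 1. CXCL8, the chemokine interleukin-8 (chromosome 4, 73740569 to 73743716), stood at 166 and 158 rescaled TPM in vector footprints and at 36.1 and 24.6 in QKI7 footprints. Its log2 change was -2.40 (SE 0.23, adjusted p = 0.0017), a vector level 5.35 times that of QKI7, and its input RNA fell by 1.61 on the log2 scale (adjusted p = 0.0172). BCL2A1, an anti-apoptotic member of the BCL2 family and like CXCL8 a target of NF-kappaB, fell from 136 and 111 to 33.0 and 45.1 (log2 change -1.65, adjusted p = 0.00372) and by 1.42 in the inputs (adjusted p = 0.0468). For both genes footprints and RNA fell together.

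For others the fall lay in footprints while the input change was small. UXT, a prefoldin-like chaperone, went from 221 and 178 to 68.0 and 78.9 (log2 change -1.43, adjusted p = 0.00231), with an input log2 change of 0.05. NIFK, a nucleolar protein that binds the proliferation marker Ki-67, went from 105 and 94.9 to 28.8 and 47.1 (log2 change -1.41, adjusted p = 0.0107), with an input log2 change of -0.05. FABP5, a fatty acid binding protein, went from 725 and 786 to 263 and 332 (log2 change -1.35, adjusted p = 0.00184), with an input log2 change of -0.35 that missed the threshold. In a fit over all 8 libraries, the footprint change differed from the input change for UXT (-1.48, adjusted p = 0.00644), NIFK (-1.36, adjusted p = 0.0258) and FABP5 (-0.997, adjusted p = 0.0101), but missed the threshold for CXCL8 (-0.80, adjusted p = 0.189) and BCL2A1 (-0.23, adjusted p = 0.767).

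The remaining large falls were SPANXB1, a sperm protein gene of a multicopy X-linked family, MRPL20 and MRPL36 of the mitochondrial ribosome, METTL5, the methyltransferase that places m6A on 18S ribosomal RNA, and NDUFC2-KCTD14, a read-through gene that shares sequence with NDUFC2. SPANXB1 went from 94.4 and 89.6 to 21.6 and 28.7 (log2 change -1.84, adjusted p = 0.00356), and its close copies make the assignment uncertain. METTL5 went from 124 and 82.1 to 28.8 and 38.9 (log2 change -1.56, adjusted p = 0.00832), with an adjusted p = 0.0502 without vector replicate 1. NDUFC2-KCTD14 had a log2 change of -1.55 (adjusted p = 0.0389), which missed the threshold without vector replicate 1 (adjusted p = 0.0753) or vector replicate 2 (adjusted p = 0.123) and with median-of-ratios scaling (adjusted p = 0.106). Reads of that gene cannot be told apart from those of NDUFC2, whose own log2 change was 0.48 (adjusted p = 0.161).

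Among entries that are not protein coding, C6orf223 (LINC03040 in RefSeq), MTRNR2L9 and MALAT1 rose most. MALAT1, an abundant nuclear RNA, went from 168 and 157 to 343 and 315 rescaled TPM in footprints (log2 change 1.01, adjusted p = 0.00229) and rose by 0.46 in inputs (adjusted p = 0.00682). MTRNR2L9, a nuclear copy of a piece of mitochondrial ribosomal RNA, had a log2 change of 2.20 (adjusted p = 0.000725), and its reads cannot be told apart from those of its source. The largest falls were ZFAS1, a host gene of small nucleolar RNAs, from 173 and 178 to 79.3 and 62.5 (log2 change -1.30, adjusted p = 0.00297), and ATP5EP2 and SLMO2-ATP5E, which share sequence with an ATP synthase gene and are uncertain for that reason (-1.30, adjusted p = 0.000809, and -1.21, adjusted p = 0.00303).

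Ribosomal proteins were the list with the most genes that fell. Of 47 tested proteins of the large subunit 43 fell and 0 rose, and of 30 of the small subunit 26 fell and 1 rose, against 31.2% lower over all genes tested. With median-of-ratios scaling 23 and 14 fell, 37 of 77 in all (48.1%), against 7.88% of all genes. The median of the 77 genes was 0.26 below that of all genes tested (relative log2 change -0.26). Their summed share of the kept footprints was 14.3% and 14.2% in vector libraries and 9.48% and 9.71% in QKI7 libraries. The groups did not overlap for 75 of the 77 genes: both QKI7 libraries were lower for 74, against 58.9% of all genes tested, and higher for 1, against 14.5%.

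Many vertebrate ribosomal protein and elongation factor mRNAs begin with a C followed by an unbroken run of pyrimidines, called a 5′ terminal oligopyrimidine tract, through which the mTOR pathway and the protein LARP1 control their translation. The windows below show this feature at the RefSeq start (GRCh38.p14) of genes that fell and of genes that did not, from 10 bases before the annotated start to 20 bases from it, with a run of at least 5 pyrimidines that begins with C at the annotated start in capitals.
RPS12, chr6:132814559-132814588, plus strand: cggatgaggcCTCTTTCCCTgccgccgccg
RPS13, chr11:17077648-17077677, minus strand: ctctcgctctCCTTTCgttgcctgatcgcc
RPL35A, chr3:197950180-197950209, plus strand: gggcctcgtcCTTCTCTTaccgccatcttg
RPL27A, chr11:8682782-8682811, plus strand: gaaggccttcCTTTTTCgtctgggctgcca
RPL19, chr17:39200273-39200302, plus strand: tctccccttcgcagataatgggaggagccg
RPL13A, chr19:49487598-49487627, plus strand: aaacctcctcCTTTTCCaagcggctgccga
EEF1A1, chr6:73521013-73521042, minus strand: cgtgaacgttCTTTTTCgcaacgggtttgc
TPT1, chr13:45341164-45341193, minus strand: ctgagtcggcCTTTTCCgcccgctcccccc
MAZ, chr16:29806519-29806548, plus strand: gcaaggcgccCTCTTTTCCTCCCTCCCgcc
GAPDH, chr12:6535254-6535283, plus strand: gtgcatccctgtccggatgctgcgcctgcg
RPS12, RPS13, RPL35A and RPL27A are the ribosomal protein genes with the largest falls that carry such a run. RPL19 is one that fell without a run at the annotated start, although the 10 bases just before that start are all pyrimidines. RPL13A and MAZ carry the run and did not fall, and GAPDH is an abundant mRNA without it. The choice of the last 6 was made after their values were seen.

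RPS12 of the small subunit had the largest fall of the family. It stood at 2555 and 2518 rescaled TPM in vector libraries and at 1130 and 1077 in QKI7 libraries, a log2 change of -1.20 (SE 0.07, adjusted p = 0.000338). RPS13 went from 2676 and 2768 to 1152 and 1261 (log2 change -1.17, SE 0.08, adjusted p = 0.000405) and RPS15A from 2910 and 2743 to 1299 and 1316 (-1.11, adjusted p = 0.000338). For these proteins the vector level was between 2.16 and 2.30 times that of QKI7. In the large subunit RPL35A fell from 3072 and 2893 to 1348 and 1371 (log2 change -1.13, SE 0.07, adjusted p = 0.000338), RPL27 from 3743 and 3685 to 1850 and 1887 (-0.99, adjusted p = 0.000338) and RPL27A from 230 and 242 to 115 and 122 (-0.99, adjusted p = 0.00277). RPL32 and RPS7 had log2 changes of -0.96 and -0.95. RPL19 fell by 0.93 (adjusted p = 0.00142), from 2084 and 2194 to 1185 and 1058.

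The exceptions, named after their values were seen, were few. RPS2 was the 1 ribosomal protein gene that rose, from 556 and 595 to 1069 and 972 (log2 change 0.82, limma adjusted p = 0.00214). Its many processed copies in the genome make its value uncertain. The same limit applies to any ribosomal protein gene with such copies, those that fell included, and was not examined. RPS26 was at 2543 and 2507 in vector and at 2380 and 2660 in QKI7 libraries (log2 change -0.01, adjusted p = 0.963), although its input RNA had a log2 change of -0.73. RPL13A was at 101 and 83.2 against 92.7 and 117 (log2 change 0.18, adjusted p = 0.473). RPS2 was higher on both scales and RPS26 with median-of-ratios scaling but not with equal sums (adjusted p = 0.0259).

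The input RNA of ribosomal protein genes was lower as well. In inputs 55 of the 77 fell and 0 rose, where 392 of the 1573 genes were called (24.9%), 334 of them lower (21.2%) and 58 higher (3.69%), and the median stood 0.40 below that of all genes (relative log2 change -0.40), a larger distance than the 0.26 in footprints. With equal sums, the median difference between both changes was -0.06 for the 77, against -0.15 over all genes tested. The difference passed the threshold for 20 of the 77, with footprints above RNA in 10 and below it in 10, against 122 (7.76%) and 157 (9.98%) of all genes tested. RPS13 was one of the latter: its input log2 change was 0.04 and the difference -1.21 (adjusted p = 0.00074). RPS12 (-0.81, adjusted p = 0.027), RPL27A (-0.76, adjusted p = 0.0193) and RPL35A (-0.40, adjusted p = 0.0355) were others. For RPL27 the input log2 change was -0.90 and the difference -0.09 (adjusted p = 0.611).

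The run of pyrimidines was more frequent at ribosomal protein genes than at other genes tested. Of 1228 tested genes with a RefSeq start 143 carried it (11.6%), against 4.04% of the 27305 starts in the table, and of 61 ribosomal protein genes with a start 41 did (67.2%). The letters searched were C and then 4 or more C or T from the annotated first base, on the strand of the gene. Of the 41 ribosomal protein genes with the run 37 fell, with a median log2 change of -0.55, and of the 20 without it 17 fell, with a median of -0.68. Among other genes 41 of 102 with the run fell (40.2%, median -0.38) and 294 of 1065 without it (27.6%, median -0.30). With median-of-ratios scaling 17 of the 41 ribosomal protein genes with the run were lower (41.5%) and 13 of the 20 without it (65%), and the lower share of the other genes was 10.8% with the run and 5.82% without it. EEF1A1, which carries it, fell from 6220 and 6022 to 4157 and 4185 (log2 change -0.55, adjusted p = 0.00173). MAZ, a zinc finger transcription factor with a run of 17 bases, went from 37.6 and 29.9 to 95.8 and 61.5 (log2 change 1.17, adjusted p = 0.024), a call lost without QKI7 replicate 1 (adjusted p = 0.162) or vector replicate 2 (adjusted p = 0.0736). An annotated start need not be the one used in these cells, and no test was made of these groups. A gene with pyrimidines just before its annotated start, such as RPL19, counts here as one without the run. How many genes are of this kind was not counted, so the groups do not separate genes with and without a tract.

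**Figure D3:**
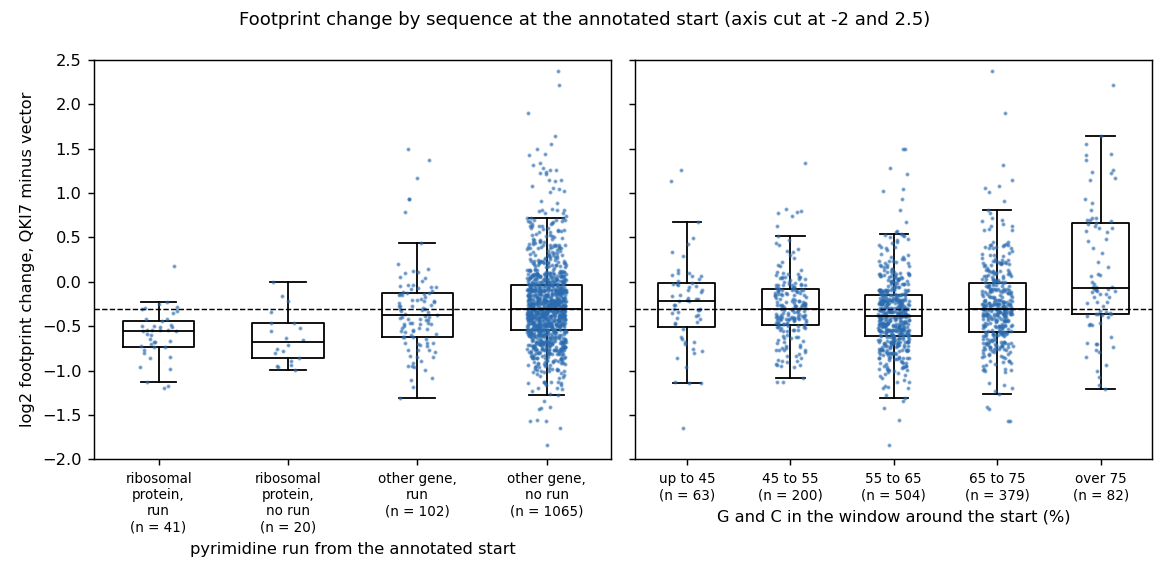
Log2 footprint change (QKI7 minus vector) of the 1228 tested genes with a RefSeq start, on the left by ribosomal protein and pyrimidine run, on the right by the percent of G and C in the 300 bases around the start; boxes show the quartiles, points are genes, and the dashed line is the median of all genes tested, -0.31. Ribosomal protein genes lie mostly below the line with or without a run that begins at the annotated start. Of the genes over 75% G and C 28.0% were called higher, against 2.98% to 6.35% in the other bins. These shares depend in part on the filter, which some genes, MAZ among them, passed only through the QKI7 libraries.

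The share called higher differed with the base composition of the window around the start, from 250 bases before it to 50 bases from it. Of 82 genes with more than 75% G and C 23 were higher (28.0%) and 15 lower (18.3%), with a median log2 change of -0.07. In the other 4 bins, from up to 45% to 65 to 75%, between 2.98% and 6.35% were higher. With median-of-ratios scaling 27 of the 82 were higher and 4 lower, against 120 and 103 of all 1228 genes with a start. MAZ (88% G and C, vector mean 0.315 deposited TPM) passed the filter only through the QKI7 libraries. A gene that passes in this way can hardly appear as a fall, and how many of the 23 did so was not counted. Across all 1228 genes the Spearman correlation of change and G and C content was 0.08, a description across genes that share libraries. Footprint change and input change were likewise loosely related across the 1573 genes (Pearson r = 0.29, Spearman rho = 0.21). Of the 491 genes lower in footprints 149 were also lower in inputs (30.3% of the first and 44.6% of the second list), and of the 114 higher genes 10 were also higher in inputs (8.77% and 17.2%).

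**Figure D4:**
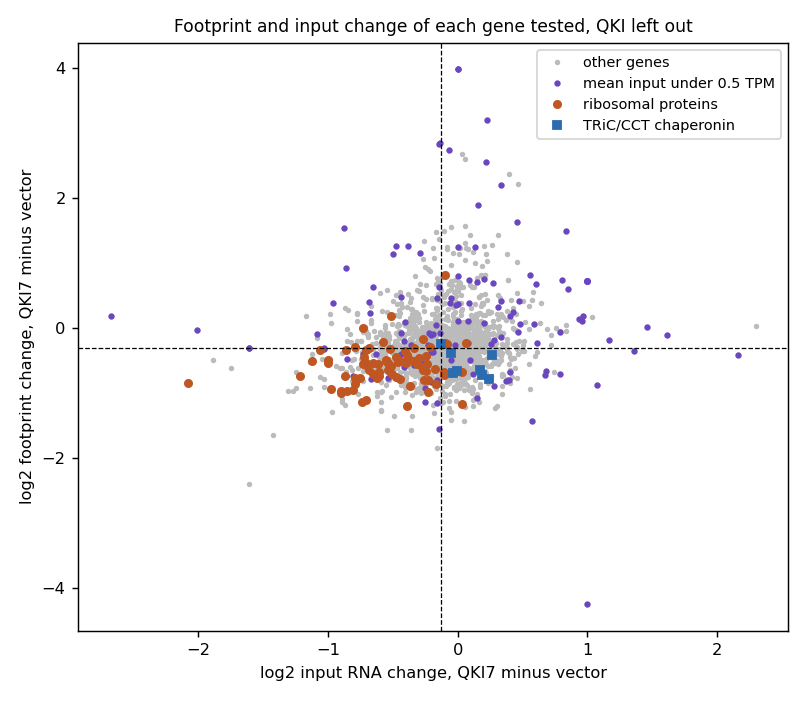
Log2 footprint change (vertical axis) against log2 input RNA change (horizontal axis) of the genes tested, QKI left out for scale; dashed lines are the medians, -0.31 in footprints and -0.13 in inputs. Ribosomal proteins (orange) lie low on both axes, TRiC/CCT subunits (blue squares) low in footprints alone, and many of the highest footprint changes are genes with a mean input under 0.5 TPM (purple).

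The counts of the lists below are to be read against all genes tested, of which 31.2% were lower and 7.25% higher, and 7.88% and 12.1% with median-of-ratios scaling. In inputs 21.2% were lower and 3.69% higher. Of 10 tested elongation factors and their partners 8 fell (80.0%) and 0 rose (relative median -0.28), and 2 fell with median-of-ratios scaling (20%). TPT1, NACA, BTF3 and EEF1E1, counted here as partners, were all among those that fell, and no termination factor of the list was tested. BTF3 and NACA form the nascent polypeptide-associated complex, which meets new chains at the ribosome. BTF3 went from 967 and 1009 to 609 and 612 (log2 change -0.69, adjusted p = 0.00229), and NACA from 1088 and 1139 to 709 and 768 (-0.59, adjusted p = 0.00399; adjusted p = 0.0524 with median-of-ratios scaling). TPT1, the translationally controlled tumour protein, whose start is shown above, went from 131 and 145 to 84.5 and 85.0 (log2 change -0.69, adjusted p = 0.0142), while its input RNA rose by 0.22 (adjusted p = 0.0277). Its call was lost without vector replicate 2 (adjusted p = 0.0707) and with median-of-ratios scaling (adjusted p = 0.113). EEF2, the translocase of elongation, was at 406 and 417 against 328 and 296 (log2 change -0.40, adjusted p = 0.0283), a call lost in each fit but that without QKI7 replicate 1 and with median-of-ratios scaling (adjusted p = 0.599); the adjusted p was 0.0922 without vector replicate 1, 0.12 without vector replicate 2 and 0.0594 without QKI7 replicate 2.

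Of 33 tested initiation factors 14 fell (42.4%, against 31.2% of all genes) and 1 rose, with a relative median of -0.05. With median-of-ratios scaling 2 fell (6.06%, against 7.88%) and 2 rose, which is near the share of all genes. EIF1, which keeps start codon choice strict, went from 1191 and 1104 to 529 and 622 (log2 change -0.998, SE 0.11, adjusted p = 0.00214). EIF3I, a subunit of the eIF3 complex, went from 307 and 267 to 153 and 136 (log2 change -0.98, adjusted p = 0.00371). EIF3J, a loosely bound eIF3 subunit named after its value was seen, was the member that rose, from 94.4 and 93.8 to 160 and 164 (log2 change 0.77, adjusted p = 0.00743), while its input RNA had a log2 change of -0.16. Of 11 aminoacyl-tRNA synthetases and their partners 5 fell (45.5%) and 0 rose (relative median -0.27), and 0 fell with median-of-ratios scaling.

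Of 40 tested genes of respiratory complexes II to V 24 fell (60%, against 31.2% of all genes; relative median -0.17) and 0 rose, and 6 fell with median-of-ratios scaling (15.0%, against 7.88%). Of 28 genes of complex I 10 fell (35.7%) and 0 rose, with a relative median of 0.02, and with median-of-ratios scaling 3 fell (10.7%) and 2 rose, so complex I as a list lay near the share of all genes. The count over both lists was 34, and 22 without vector replicate 1 or 20 without vector replicate 2. COX6A1, a subunit of cytochrome c oxidase, went from 985 and 1007 to 508 and 479 (log2 change -1.01, SE 0.09, adjusted p = 0.00109), and its input RNA fell by 0.77 (adjusted p = 0.00541). NDUFB9 of complex I went from 435 and 379 to 194 and 140 (log2 change -1.29, adjusted p = 0.00363), with an input log2 change of -0.05. NDUFV2, which holds an iron-sulfur cluster in complex I, went from 178 and 165 to 77.3 and 96.3 (log2 change -0.98, adjusted p = 0.00673). ATP5O of the ATP synthase went from 194 and 189 to 89.6 and 109 (log2 change -0.95, adjusted p = 0.00581).

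Of 78 mitochondrial ribosomal protein genes 31 were tested, and 8 fell (25.8%) and 0 rose, with a relative median of -0.08. With median-of-ratios scaling 2 fell (6.45%) and 1 rose. Both lower shares were below those of all genes tested, 31.2% and 7.88%. MRPL20 went from 148 and 147 to 39.1 and 61.5 (log2 change -1.57, adjusted p = 0.00493). MRPL36 went from 114 and 130 to 34.0 and 65.6 (log2 change -1.35, adjusted p = 0.0192), with an adjusted p = 0.0658 without vector replicate 2 and 0.0616 with median-of-ratios scaling. MRPL51 had a log2 change of -0.89 (adjusted p = 0.00656).

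**Figure D5:**
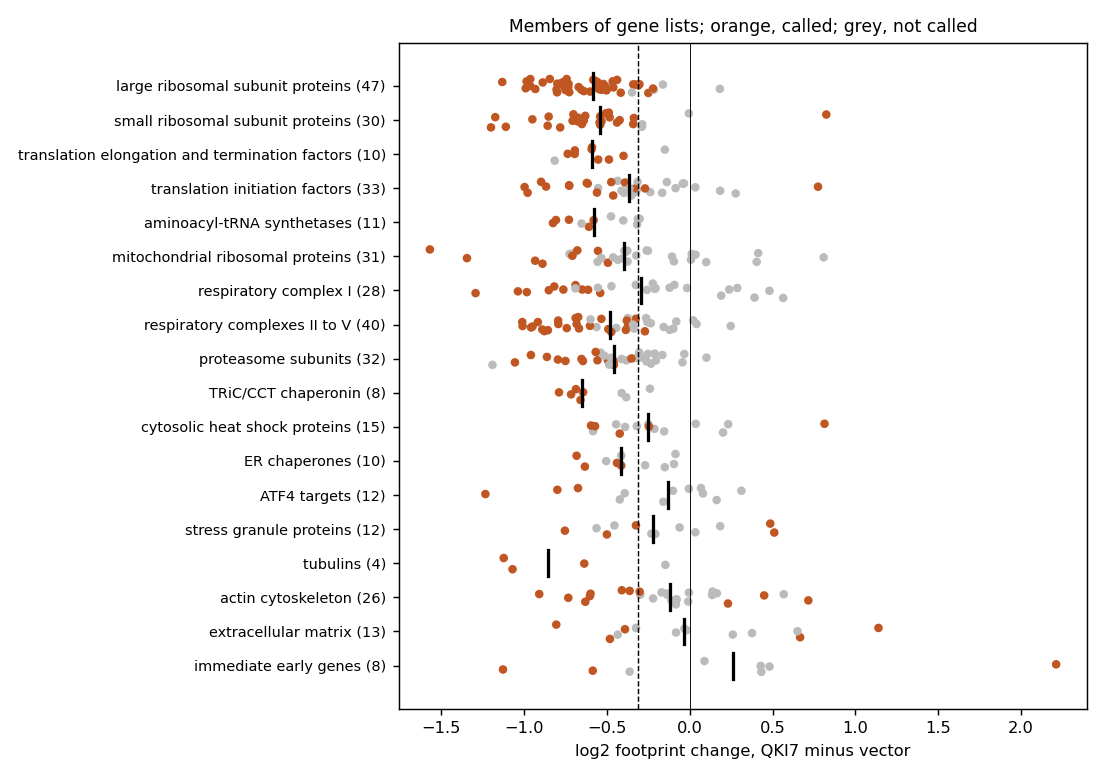
Log2 footprint change (QKI7 minus vector, horizontal axis) of the tested members of 18 gene lists, with the number tested in brackets; orange points were called, grey points were not, black bars are list medians and the dashed line is the median of all genes tested, -0.31. The ribosomal protein, elongation factor, TRiC/CCT and tubulin lists lie left of the line, and the extracellular matrix and immediate early lists right of it.

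TRiC/CCT, the ring-shaped chaperonin that folds actin and tubulin, has 8 subunit genes, of which 5 fell (62.5%) and 0 rose (relative median -0.34), and 2 fell with median-of-ratios scaling (25.0%). For all 8 both QKI7 libraries lay below both vector libraries, against 58.9% of all genes tested. CCT6A went from 189 and 199 to 107 and 117 (log2 change -0.79, SE 0.13, adjusted p = 0.00682), and CCT8 from 370 and 376 to 222 and 241 (-0.69, adjusted p = 0.00558). In inputs 0 of the 8 passed the threshold, against 24.9% of all genes tested, and their median was 0.21 above that of all genes. With equal sums, the median difference between both changes was -0.66 for the 8, against -0.15 over all genes tested. The difference passed the threshold for 6 of the 8, with footprints below RNA in each. CCT6A was among them (difference -1.03, limma adjusted p = 0.00368). Of all genes tested 9.98% passed in this direction.

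Tubulins, which this chaperonin folds, had 4 members tested, of which 3 fell (relative median -0.54), and 2 with median-of-ratios scaling. TUBA1B went from 3267 and 3520 to 1439 and 1811 (log2 change -1.07, SE 0.12, adjusted p = 0.00214) and TUBA1C from 2329 and 2187 to 1189 and 902 (-1.12, adjusted p = 0.00229). Their input log2 changes were -0.14 and -0.01. The alpha-tubulin genes are near-identical in sequence, so their values cannot be fully separated. TUBB4B was at 1404 and 1518 against 1341 and 1295 (log2 change -0.15, adjusted p = 0.172), and its direction turned with median-of-ratios scaling (0.16).

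Of 32 proteasome subunits 13 fell (40.6%, against 31.2% of all genes) and 0 rose (relative median -0.15), and 1 fell with median-of-ratios scaling (3.12%, against 7.88%): PSMD6 of the regulatory cap, from 132 and 124 to 68.0 and 71.7 (log2 change -0.86, adjusted p = 0.00782). Of 15 tested heat shock genes 4 fell (26.7%) and 1 rose (relative median 0.06), and with median-of-ratios scaling 0 fell and 2 rose. Most of the 15 are cytosolic, but the list also holds HSPD1 and HSPE1 of the mitochondrion, and HSPE1 was one of the 4. HSPA1A, the stress-induced HSP70, went from 482 and 551 to 849 and 969 (log2 change 0.81, SE 0.11, adjusted p = 0.00371), with an input rise of 0.21 (adjusted p = 0.0212); its near-identical copy HSPA1B makes the split between them uncertain. HSPA8, the HSP70 that is always present, went from 1688 and 1620 to 1062 and 1165 (log2 change -0.57, adjusted p = 0.00382; adjusted p = 0.0506 with median-of-ratios scaling). Of 10 chaperones of the endoplasmic reticulum 4 fell (40.0%) and 0 rose, and 0 fell with median-of-ratios scaling.

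The stress programme downstream of eIF2 alpha was described through ATF4, the transcription factor whose translation rises when initiation falls, and its targets. ATF4 was at 1414 and 1369 against 1118 and 1089 (log2 change -0.33, adjusted p = 0.0151), which is close to the typical gene, and its call was lost with median-of-ratios scaling (-0.03, adjusted p = 0.832), without vector replicate 1 (adjusted p = 0.0814) and without vector replicate 2 (adjusted p = 0.059). Of 12 tested ATF4 targets 3 fell (25.0%, against 31.2% of all genes) and 0 rose (relative median 0.18), and with median-of-ratios scaling 1 fell and 1 rose. ASNS, asparagine synthetase, went from 92.3 and 93.8 to 37.1 and 41.0 (log2 change -1.23, SE 0.20, adjusted p = 0.00577), with an input log2 change of -0.07. Its QKI7 values lay under the level of 0.5 deposited TPM, so ASNS passed the filter only through the vector libraries. Of 9 mRNAs known for control by upstream open reading frames 4 fell and 0 rose (relative median 0.10), and 1 with median-of-ratios scaling; EIF1, given above, and ATF4 are among them.

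Of 22 tested genes of the oxidative stress and metal response 10 fell (45.5%, against 31.2% of all genes) and 3 rose (13.6%, against 7.25%; relative median -0.04), and with median-of-ratios scaling 0 fell and 4 rose. SRXN1, sulfiredoxin, which restores oxidised peroxiredoxins, went from 126 and 118 to 386 and 285 (log2 change 1.44, SE 0.17, adjusted p = 0.00229), with an input log2 change of 0.09. HMOX1, the heme oxygenase that arsenite is known to induce, went from 132 and 107 to 170 and 231 (log2 change 0.73, adjusted p = 0.0283), with an input rise of 0.39 (adjusted p = 0.00555), and its footprint call was lost without vector replicate 2 (adjusted p = 0.107). TXN, thioredoxin, fell from 356 and 403 to 242 and 215 (log2 change -0.73, adjusted p = 0.00707), a call lost with median-of-ratios scaling (adjusted p = 0.0697).

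Of 12 tested stress granule proteins 3 fell (25.0%) and 2 rose (relative median 0.09), and with median-of-ratios scaling 0 fell and 2 rose. G3BP1, a scaffold of these granules, was at 217 and 193 against 142 and 146 (log2 change -0.50, adjusted p = 0.0266). This call was lost without vector replicate 1 (adjusted p = 0.127), without vector replicate 2 (adjusted p = 0.056) and with median-of-ratios scaling (adjusted p = 0.328). YBX3, a cold shock domain protein that binds mRNA, was at 98.7 and 105 against 153 and 137 (log2 change 0.51, adjusted p = 0.0337), while its input RNA fell by 0.48 (adjusted p = 0.0025). The YBX3 call was lost without QKI7 replicate 1 (adjusted p = 0.13), vector replicate 1 (adjusted p = 0.12) or vector replicate 2 (adjusted p = 0.0843).

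Of 26 tested genes on the actin cytoskeleton list 8 fell (30.8%, against 31.2% of all genes) and 3 rose (relative median 0.19), and with median-of-ratios scaling 4 fell and 5 rose. The list also holds VIM, a gene of intermediate filaments rather than actin, which was one of the 8. ARPC3 of the Arp2/3 complex, which branches actin filaments, went from 302 and 340 to 153 and 189 (log2 change -0.91, adjusted p = 0.0061). PFN1, profilin, which feeds actin monomers to growing filaments, went from 863 and 867 to 519 and 520 (log2 change -0.73, adjusted p = 0.00214), and MYL12B, a myosin light chain, from 1508 and 1495 to 971 and 967 (-0.63, adjusted p = 0.00214). FLNA, the large actin crosslinker filamin A, rose from 129 and 130 to 202 and 225 (log2 change 0.72, adjusted p = 0.00832), with an input log2 change of 0.01. ACTB, beta-actin, was at 3788 and 3693 against 2781 and 2848 (log2 change -0.41, adjusted p = 0.00398), and missed the threshold with median-of-ratios scaling (adjusted p = 0.244).

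Of 13 extracellular matrix genes 3 fell (23.1%) and 2 rose (relative median 0.28), and with median-of-ratios scaling 0 fell and 3 rose. COL1A1, a chain of type I collagen, went from 34.3 and 33.1 to 85.5 and 66.6 (log2 change 1.14, adjusted p = 0.0137), a call lost without QKI7 replicate 1. Its vector values lay under the level of 0.5 deposited TPM, so COL1A1 passed the filter only through the QKI7 libraries. LGALS1, galectin-1, fell from 4902 and 5164 to 3617 and 3587 (log2 change -0.48, adjusted p = 0.00231; adjusted p = 0.0914 with median-of-ratios scaling), and by 0.80 in inputs (adjusted p = 0.00177). LGALS1 is the most abundant of the 16 mesenchymal markers, whose summed level was 73.0 and 74.2 deposited TPM in vector and 57.0 and 54.3 in QKI7 footprints; their part in these results was not tested. In bulk libraries fewer cells of a type and less RNA per cell cannot be told apart.

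Genes of growth signalling were few among those tested. YAP1 and TEAD1, a co-activator and its DNA-binding partner in the Hippo pathway, had mean footprint levels of 0.143 and 0.13 deposited TPM and were not tested. Of 6 tested YAP target genes 4 fell and 0 rose (relative median -0.14), and 0 with median-of-ratios scaling. In inputs all 6 fell (relative median -0.45), against 21.2% of all genes tested. CTGF and CYR61, the best known of these targets, were at 631 and 590 against 471 and 462 and at 233 and 207 against 160 and 149. Both calls were lost without either vector library: for CTGF the adjusted p was 0.112 without vector replicate 1 and 0.0598 without vector replicate 2, and for CYR61 0.123 and 0.0543. Of 8 immediate early genes 1 rose and 2 fell (relative median 0.57), and with median-of-ratios scaling 4 rose and 0 fell; JUND, given above, was the member called in both.

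In the other lists with at least 4 genes tested the medians lay within 0.21 of the typical gene. Of 12 glycolysis genes 8 fell (66.7%, against 31.2% of all genes) and 0 rose (relative median -0.01), and 1 fell with median-of-ratios scaling (8.33%, against 7.88%): ENO1, enolase, from 1718 and 1668 to 1018 and 1116 (log2 change -0.67, adjusted p = 0.00231). GAPDH, another member, was at 17221 and 17064 against 14178 and 14769 (log2 change -0.24, adjusted p = 0.00859), and with median-of-ratios scaling its log2 change was 0.06 (adjusted p = 0.302). Of 30 hnRNP and SR splicing factors 5 fell (16.7%) and 1 rose (relative median 0.08), and with median-of-ratios scaling 1 fell and 2 rose. HNRNPC, which binds uridine runs in pre-mRNA, went from 332 and 344 to 181 and 197 (log2 change -0.84, adjusted p = 0.00356). Of 10 genes of the m7G and m6A machinery, a list that holds QKI itself, 4 fell and 1, QKI, rose.

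Of 15 DNA replication and nucleotide supply genes 7 fell (46.7%, against 31.2% of all genes) and 0 rose (relative median -0.12), and 1 with median-of-ratios scaling: NME1, a nucleoside diphosphate kinase, from 526 and 510 to 317 and 278 (log2 change -0.80, adjusted p = 0.00368). Of 13 mitosis genes 3 fell (23.1%) and 0 rose in footprints (relative median -0.06), and 0 with median-of-ratios scaling. In inputs 6 rose and 2 fell (relative median 0.42), against 3.69% higher and 21.2% lower over all genes tested. HMGCS1, an enzyme of cholesterol synthesis, rose by 0.61 in inputs (adjusted p = 0.0123), whereas its footprints were at 82.6 and 88.5 against 71.1 and 61.5 (log2 change -0.37, adjusted p = 0.147), a difference of -0.98 between both changes (adjusted p = 0.0118). Of 6 tested p53 targets 1 fell and 0 rose, and 0 with median-of-ratios scaling. Shorter lists are given by their members, named after their values were seen. The NF-kappaB list had 2 genes tested: CXCL8, given above, and CCL2, another chemokine, which went from 233 and 204 to 346 and 282 (log2 change 0.52, adjusted p = 0.0336). The CCL2 call was lost without QKI7 replicate 1 (adjusted p = 0.0759), vector replicate 1 (adjusted p = 0.054) or vector replicate 2 (adjusted p = 0.136). Of the STAR family 3 genes were tested. KHDRBS1 (Sam68) had a log2 change of 0.05 and SF1, which binds the branch point in splicing, of -0.10, and QKI was the 1 member called. The Hippo pathway had 1 gene tested, FRMD6, with a log2 change of -0.11 (adjusted p = 0.583).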

How the data were processed

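The authors deposited 1 table of TPM, rounded to 2 decimals. STAR, RSEM 1.2.31 and GRCh38 are named in the submitters' processing notes, with no roles or settings. Strand use in counting was not given in the sources used here. RNA classes, starts and coordinates came from RefSeq GRCh38.p14 by symbol (1433 of the genes tested) or older symbol (119); 21 had no match. The 2535 entries dropped include 50 host genes with microRNA names. Changes were tested with limma 3.58.1 (R 4.3.3; lmFit and trended eBayes) on log2(rescaled TPM + 1) of the 4 footprint libraries, two-sided, with Benjamini-Hochberg adjustment over all 1573 genes, a threshold of 0.05 and 2 residual degrees of freedom (4.34 prior). Fold changes on this scale understate those of low genes. Inputs were fitted the same way, and differences of changes over all 8 libraries. The smallest p of an exact permutation test of 2 against 2 is 0.333, so the calls depend on the variance that limma borrows across genes. On simulated data for this comparison (1573 genes, 100 changed at each size), 92% of log2 changes of 1 and 38% of 0.5 were recovered, with 9 false calls among 1373 unchanged genes. The simulated noise was normal and independent, with the fitted variances, and as many genes rose as fell. It held no shift of the typical gene, so these rates do not cover the dependence on scale.

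The libraries, gene lists and rules were chosen with earlier results of these data known, so a list's direction is not independent evidence, and lists are described by counts and medians beside those of all genes tested. Named genes were QKI, the 10 largest called rises and falls among protein-coding genes whose QKI7 libraries both lay outside the vector range, the 3 largest in each direction among other entries, and up to 4 members of each list with at least 4 members tested, called ones first by size. ATF4, G3BP1, YAP1, TEAD1, EEF2, ACTB and GAPDH were always considered. Of the genes tested 62 had a vector mean and 118 a QKI7 mean under 0.5 TPM; 30 of the first were higher and 40 of the second lower, and these passed the filter through 1 group. Protein lengths were not used here. The list of cholesterol genes is not reported here as a whole.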

Additional observations from a re-analysis of the deposited data

Results flagged for a closer look

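For 20 of the genes named as the largest changes, the footprint change and the input RNA change differed in a fit over all 8 libraries (limma adjusted p under 0.05). The footprint change exceeded the input change, on the log2 scale, by 2.98 for TRIM67, 2.98 for FAM181B, 2.81 for RELN, 2.64 for HDGFRP3, 2.55 for GRK3, 2.34 for HS3ST4, 1.98 for DICER1, 1.75 for JUND and 1.74 for FOXF2. Among entries that are not protein coding it did so by 2.97 for C6orf223, 1.87 for MTRNR2L9 and 0.55 for MALAT1. The difference was negative for QKI (-3.41), SPANXB1 (-1.68), UXT (-1.48), NIFK (-1.36), SLMO2-ATP5E (-1.27), MRPL20 (-1.21), ZFAS1 (-1.12) and FABP5 (-0.997). Inputs of TRIM67, FAM181B, RELN, HS3ST4, FOXF2, C6orf223 and MTRNR2L9 were under 0.5 TPM on average.

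Classes of RNA that were dropped before rescaling took a larger share of deposited TPM in QKI7 than in vector footprint libraries. The ratio of the group means was 1.86 for box C/D and H/ACA snoRNA, 1.83 for Cajal body RNA, 1.29 for 7SL and 7SK RNA, 1.24 for entries with microRNA names, host genes included, 1.12 for ERCC spike-ins and 1.10 for spliceosomal snRNA. These ratios were not tested.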

How the results depend on the processing

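Of 605 calls (114 higher, 491 lower; 69 ribosomal protein and 34 respiratory chain genes lower), median-of-ratios scaling gave 314 (190 higher, 124 lower, 37 and 9), quantile normalization gave 255 (111 lower, 27 and 5), and equal sums without RELN, vault RNA and SNAR RNA, chosen after seeing the data, gave 399 (246 lower, 20 respiratory chain). The split was 153 higher there, 144 with quantile normalization, 119 higher and 358 lower over protein-coding genes only, and 126 and 386 without rescaling. With genes also measured in inputs, another added choice, 303 were lower. Without a filter on low values 0 of 16776 genes passed limma's test (0 lower in either list), with 2701 at an unadjusted p under 0.05. Leaving out 1 library gave 343 to 694 genes called, 265 to 575 lower and 20 to 42 respiratory chain genes lower. Directions turned for genes near 0: ATF4 0.048 under quantile normalization; TUBB4B 0.16 under median-of-ratios, 0.31 under quantile normalization, 0.043 without RELN and the others, and 0.00056 over genes in inputs; CDKN1A 0.14, 0.094 and 0.026 under the first 3 of these and -0.34 to 0.016 without 1 library; DDB2 0.097 and GAPDH 0.063 under median-of-ratios; FDPS -0.14 to 0.27 without 1 library. The cause was not tested. Of 122 named calls, 63 held under median-of-ratios and 70 in every fit without 1 library.

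Same-numbered footprint libraries did not deviate together (correlation across genes -0.22, 2 pairs). This value cannot show whether libraries shared a batch or a dish, under these numbers or under another pairing. The replicate block gave 109 higher and 484 lower, with 554 of the 605 calls and 117 of the 122 named calls kept. With crossed numbers it gave 119 and 510.

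The change by coding length was not run because protein lengths were not used here. Read depth is unknown, so values near 0.01 TPM have no stated precision.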

Other observations

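MTRNR2L entries, nuclear copies of mitochondrial ribosomal RNA, together took 4.85% and 4.87% of the kept TPM in vector footprints and 4.91% and 4.88% in QKI7 footprints. The most negative log2 change among all genes tested was that of NKX2-1, a homeobox transcription factor, at -4.25. It stood at 65.5 and 132 rescaled TPM in vector libraries and was listed at 0 and at 23.6 in QKI7 libraries, and it missed the threshold (limma adjusted p = 0.0545).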
